A study of Mus musculus with 6 samples.

Results

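The repeat-rich miRNAs of the Sfmbt2 locus were followed in small RNA from extracellular vesicles that osteoblasts, the bone-forming cells, release as they die by apoptosis. Members were all entries of the deposited table whose names begin with miR-297, miR-466, miR-467 or miR-669 followed by a letter or hyphen, which gave 45 of 1712 entries. The control group held 3 libraries of vesicles from SIRT6f/f mice, which carry floxed Sirt6 alleles and no Cre. The knockout group held 3 libraries from Prx1cre;SIRT6f/f mice, in which the Prx1 enhancer drives Cre in the limb mesenchyme, so that other cells of the animal keep Sirt6, a nuclear deacetylase. Both groups share the floxed alleles, and the labels give no strain, age or sex. Nor do they say which animal or culture each library stems from. A limma p-value here rests on the spread between libraries, taken from its trend over entries of similar level. That spread may be technical.

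Sfmbt2 encodes a Polycomb group protein, and in mouse it is an imprinted gene expressed from the paternal allele in placenta. One of its introns holds a long rodent-specific array of miRNA hairpins that grew by repeated duplication and contains simple GU and CA repeats. A mature miRNA finds its targets mainly through its seed, bases 2 to 8. Mature forms that differ by few bases can share reads, so the value of one member may include reads of another.

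In the GENCODE M21 annotation of GRCm38, 81 hairpins of these 4 subfamilies were found, and 71 of them lay in Sfmbt2 (chr2:10370510-10595253, plus strand). Those 71 were all on the strand of the gene and within the intron after exon 11 of its transcript with the most exons (23), between 10466663 and 10518279, a span of 51.6 kb. The other 10 hairpins lay elsewhere in the genome. By name, 38 members came only from hairpins inside Sfmbt2 and 5 only from hairpins elsewhere. The remaining pair, miR-297a-5p and miR-466f, had hairpins in both places. No source used here names the authors' build, and these positions were matched by name only.

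RefSeq (GRCm38.p6) gave mature sequences for 5 of the 45 members, and these were the 5 whose hairpins lie outside Sfmbt2. They are shown because they make the repeat that names this group visible, each from 5′ to 3′ with the seed in capitals.
miR-466q: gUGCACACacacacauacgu
miR-467f: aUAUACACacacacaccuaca
miR-466i-3p: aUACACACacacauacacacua
miR-669n: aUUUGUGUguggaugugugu
miR-467g: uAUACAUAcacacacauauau
The first 3, together with miR-467g, contain the run ACACAC, and miR-669n contains the run UGUGUG, both searched in the mature RNA as listed. Among 1674 distinct mature mouse sequences of the same RefSeq table, 0.657% contained ACACAC and 1.67% contained UGUGUG, so 2.33% contained one or the other against 5 of 5 here. The 5 seeds all differed, and no other mature sequence in that table had any of them. The table gave no sequence for the other members, so seeds shared with those could not be seen. Their hairpins lay in introns of Tnik (miR-466q, same strand as the gene), Fxr2 (miR-467f, opposite strand), Cdk13 (miR-466i-3p, opposite strand), Slc30a7 (miR-669n, opposite strand) and Grk4 (miR-467g, opposite strand).

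The values are RPM, reads per 1000000 listed reads of the library, a scaling done by the authors. In each library the values were whole multiples of 0.5 of the smallest value above 0 (tolerance 0.001 read), so that this smallest value, 1.09 to 1.48 RPM, would stand for 2 reads. Read numbers given here are inferred in this way from RPM values. On this reading, the depth was 1352045 to 1627705 reads in the control and 1608276 to 1838239 reads in the knockout libraries, and 3 reads corresponded to 1.63 to 2.22 RPM. Such depth limits cover counting error only. Entries with a miRNA name took 50.0% to 56.9% of the listed reads in the control libraries and 37.2% to 47.2% in the knockout libraries, with knockout replicate 3 the lowest.

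The members were rare as a group. They summed to 730, 912 and 881.6 RPM in control replicates 1, 2 and 3 and to 932, 761 and 1383 RPM in knockout replicates 1, 2 and 3, which is 0.0730% to 0.138% of each library. Knockout replicate 3 was the highest, and knockout replicate 2 lay within the control range. The control mean was 841 ± 97.7 RPM and the knockout mean 1025 ± 321 RPM (SD, n = 3 each), a ratio of 1.22, which came to 1.01 without knockout replicate 3.

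Detection was thin outside a few members. Of the 45 members, 15 had a value above 0 in all 6 libraries, 12 in only 1 library and 7 in 2 libraries. In all, 111 of the 270 member values were listed at 0 and 53 rested on 2 or 3 reads. The control libraries had 25, 25 and 29 members above 0 and the knockout libraries 33, 27 and 20, in order of replicate number, so the groups overlapped. The library with the fewest, knockout replicate 3, was the deepest in listed reads. Only 37.2% of these went to entries with a miRNA name, the lowest share of the libraries.

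A single member, miR-297b-5p, was the most abundant in each of the 6 libraries. It held 47.8% ± 7.24 of the member total in the control and 71.9% ± 16.1 in the knockout libraries (SD, n = 3 each), followed by miR-467a-5p and miR-669c-5p. These 3 members together made up 77.4% ± 3.97 and 87.6% ± 7.04 of the total. Only 9 of 45 members reached a mean of 10 RPM over the 6 libraries, and 29 had a mean under 2 RPM.

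miR-297b-5p, the 5p arm of the hairpin Mir297b (chr2:10511667-10511775), was listed at 299.9, 506 and 411.6 RPM in control replicates 1 to 3. In the knockout replicates it was listed at 634, 442 and 1238 RPM. Knockout replicates 1 and 3 lay above all control libraries and knockout replicate 2 lay among them, so the groups overlapped. The log2 fold change on the log2(RPM + 1) scale was 0.82 ± 0.29 (SE, 95% interval 0.26 to 1.39), and it did not pass the threshold (limma adjusted p = 0.0706). Without knockout replicate 3 the value was 0.42, and without knockout replicate 2 it was 1.16 and passed (limma adjusted p = 0.0229). The standard error and interval came from the trend of spread against level over all tested entries. This member's own SD within groups on the log2 scale was 0.596, and with that trend removed the limma adjusted p was 0.478.

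miR-467a-5p, whose name is shared by 10 hairpins of the intron, was listed at 150.7, 132.4 and 122.9 RPM in the control libraries. The knockout libraries had 73.4, 90.4 and 38.6 RPM, all below the lowest control value. It was the member that fell past the threshold, with a log2 fold change of -1.07 ± 0.33 (limma adjusted p = 0.0330). The call held in 5 of 17 alternative settings, with adjusted p between 0.0136 and 0.398 over them. It was lost without control replicate 1 (limma adjusted p = 0.231), control replicate 2 (0.124), control replicate 3 (0.164) or knockout replicate 1 (0.0534). Without knockout replicate 3 it held at a smaller log2 fold change of -0.72 (limma adjusted p = 0.0465). In the fit, each entry's standard error came wholly from the trend of spread against level, so its own replicate spread had no weight. With that trend removed the adjusted p was 0.398.

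miR-669c-5p comes from the hairpin Mir669c (chr2:10509296-10509404), 2.26 kb before Mir297b on the same strand. It was listed at 103, 109 and 122 RPM in the control and at 76.5, 98.9 and 46.2 RPM in the knockout libraries. The groups did not overlap, although knockout replicate 2 was close to the lowest control value. The log2 fold change was -0.65 ± 0.33 (limma adjusted p = 0.2497).

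**Figure D1:**
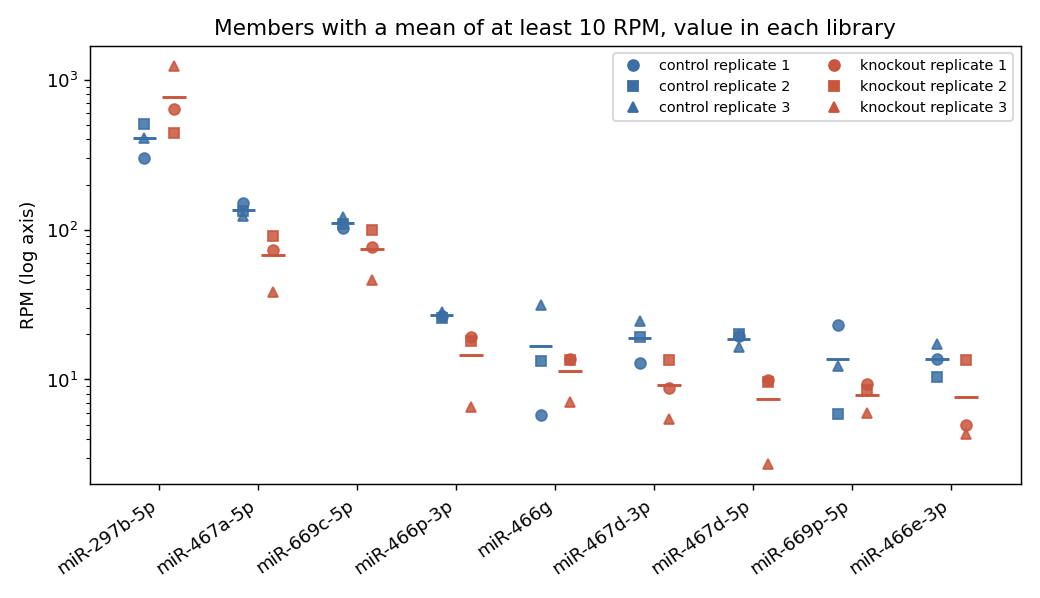
RPM of the 9 members with a mean of at least 10 RPM on a log axis, with control libraries in blue, knockout libraries in red, a marker shape for each replicate number and a bar at each group mean. Both group means of miR-297b-5p lie above those of all other members, and knockout replicate 3 has the highest value of miR-297b-5p and the lowest of 6 of the other 8 members.

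The next 6 members were each between 10.7 and 20.8 RPM on average, and none passed the threshold. The 3p arm of Mir466p (chr2:10506006-10506094), the most abundant miR-466 member, had 26.7, 25.9 and 28.3 RPM in the control and 19.3, 18.1 and 6.53 RPM in the knockout libraries. The groups of miR-466p-3p did not overlap (log2 fold change -0.97 ± 0.44, limma adjusted p = 0.191). Its lowest value, in knockout replicate 3, rested on 12 reads.

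Both arms of Mir467d (chr2:10507630-10507714) were listed at similar levels. miR-467d-5p had 19.5, 20.0 and 16.6 RPM in the control and 9.95, 9.60 and 2.72 RPM in the knockout libraries, without overlap (log2 fold change -1.38 ± 0.51, limma adjusted p = 0.0850). miR-467d-3p had 13.0, 19.2 and 24.6 RPM in the control and 8.70, 13.6 and 5.44 RPM in the knockout libraries, with overlap (-0.997 ± 0.49, limma adjusted p = 0.2299). Knockout replicate 3 was the lowest library for both arms.

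The values of miR-466g scattered most among the controls, with 5.77, 13.3 and 31.3 RPM, and were 13.7, 13.6 and 7.07 RPM in the knockout libraries. Its log2 fold change of -0.29 ± 0.49 (limma adjusted p = 0.772) turned to 0.29 without control replicate 3. It also turned to 0.15 after rescaling to named entries other than miR-6236, miR-6238, miR-6239, miR-6240 and miR-3968, and to 0.075 with quantile normalization. Those 5 entries are called fragment-like here, as possible pieces of other RNAs, which these data do not establish. miR-669p-5p, from 2 hairpins, had 23.1, 5.92 and 12.3 RPM in the control and 9.33, 8.47 and 5.98 RPM in the knockout libraries (-0.57 ± 0.53, limma adjusted p = 0.645). miR-466e-3p had 13.7, 10.4 and 17.2 RPM in the control and 4.97, 13.6 and 4.35 RPM in the knockout libraries (-0.90 ± 0.53, limma adjusted p = 0.341). For these 3 members the groups overlapped.

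Among the rare members, miR-467b-3p stood at 0 in every control library and at 3.11, 1.13 and 4.35 RPM in the knockout libraries, which stand for 5, 2 and 8 reads. It entered the test only through the knockout group and did not pass (limma adjusted p = 0.112). The other arm, miR-467b-5p, averaged 8.13 ± 3.32 RPM in the controls and 3.95 ± 2.53 RPM in the knockouts (SD, n = 3 each). No member was above 0 in all control libraries and at 0 in all knockout libraries. Members seen in 1 group only, 6 in the control and 8 in the knockout libraries, never exceeded 2.16 and 4.35 RPM, respectively.

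Of the 45 members, 26 reached 1 RPM in 3 or more libraries and were tested. With an adjusted p under 0.05, 0 were higher and 1 was lower, where 2.15% of all 1114 tested entries were higher and 2.69% lower. Before adjustment, limma p was under 0.05 for 2 of the 26 members above 0 and for 5 below it. Over all 1114 tested entries these counts were 60 and 163. In 6 members every knockout library lay below every control library, against 19.3% of all tested entries, and in 3 every knockout library lay above, against 6.28%. These shares are near the background. Separation downward was more frequent at higher levels. Of the 9 members averaging 10 RPM or more, 4 had it. Among the 274 tested named entries in that range a small majority had it, so the members showed no excess of separation. The calls by limma adjusted p are a separate count: 29 of these 274 named entries were called lower, beside 1 of the 9 members. The 3 higher ones, miR-466c-5p, miR-297c-3p and miR-467b-3p, stayed at or below 8 reads. The 19 members that were not tested had means of 0.181 to 0.688 RPM and at most 4 reads in any library.

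The median log2 fold change of the tested members was -0.61, with 18 of 26 below 0, beside -0.27 and 60.1% for all tested entries. The values differed with abundance. Among members averaging 10 RPM or more, 8 of 9 lay below 0 (median -0.90), as did 78.8% of all tested entries with a miRNA name in that range (median -0.59). The 17 rarer members had -0.34, and rarer named entries -0.08. Rescaling to named entries without fragment-like ones moved the median of all entries to 0.07 and that of the members to -0.36, so that the distance between them went from -0.34 to -0.43. Without knockout replicate 3 that distance was -0.12.

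**Figure D2:**
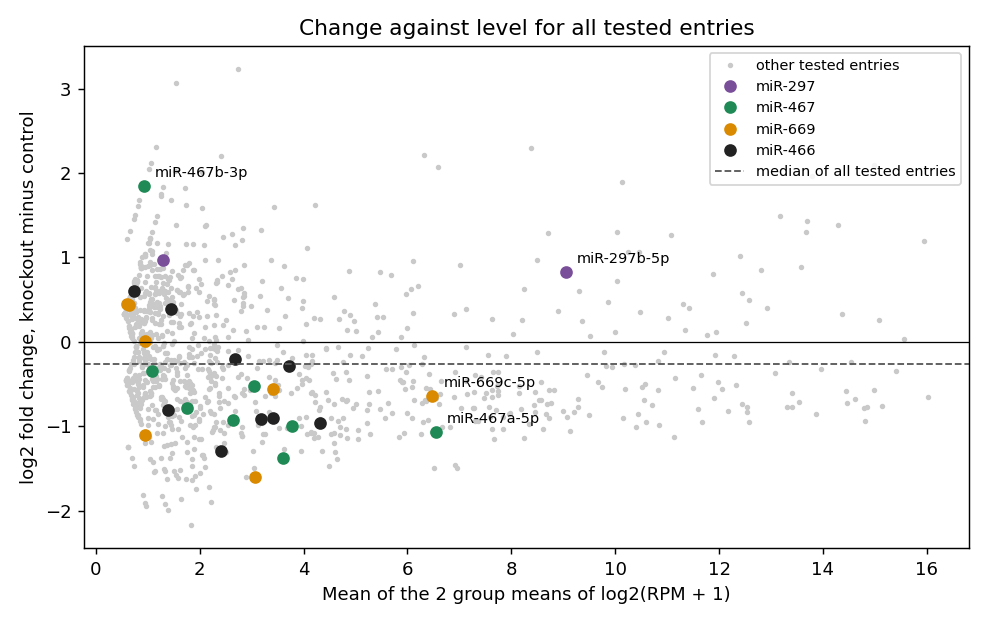
Each point is a tested entry, with the mean of the group means of log2(RPM + 1) on the x axis and the log2 fold change, knockout minus control, on the y axis; coloured points are the 26 tested members by subfamily and the dashed line is the median of all entries at -0.27. Apart from miR-297b-5p at 0.82, the members above 0 lie at the left edge, where values rest on few reads.

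The 4 subfamilies differed in size and in where their reads lay. The miR-297 subfamily had 4 members and its sum was nearly all miR-297b-5p, at 301, 507 and 413 RPM in the control and 642, 445 and 1240 RPM in the knockout libraries. The ratio of the group means was 1.90, and 1.33 without knockout replicate 3. miR-297c-3p, the other tested member, had at most 3.73 RPM, and miR-297a-5p and miR-297c-5p had at most 1.87 RPM.

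The 11 miR-467 members summed to 202, 193 and 194 RPM in the control and to 121, 129 and 56.6 RPM in the knockout libraries. All knockout libraries lay below all controls, and the ratio was 0.520, or 0.637 without knockout replicate 3. Of the 8 tested, 7 lay below 0, with a median of -0.85. miR-467b-3p was the exception.

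The 14 miR-669 members summed to 146, 137 and 155 RPM in the control and to 106, 115 and 57.1 RPM in the knockout libraries, again without overlap, with a ratio of 0.635, or 0.757 without knockout replicate 3. Most of that sum was miR-669c-5p. Of the 7 tested, 4 lay below 0 (median -0.57). miR-669o-3p had the lowest log2 fold change of all tested members, -1.60 ± 0.57 (limma adjusted p = 0.0739), from 13.0, 14.1 and 13.5 RPM in the control and 11.8, 2.26 and 1.63 RPM in the knockout libraries.

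The miR-466 subfamily was the largest, with 16 members, and the least abundant, with sums of 80.8, 74.7 and 119 RPM in the control and 64.0, 72.3 and 29.4 RPM in the knockout libraries. The groups did not overlap, though control replicate 2 and knockout replicate 2 were close. The ratio was 0.603, or 0.745 without knockout replicate 3, and 7 of 9 tested members lay below 0 (median -0.81). These sums rest on members chosen with earlier results known and were not tested.

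**Figure D3:**
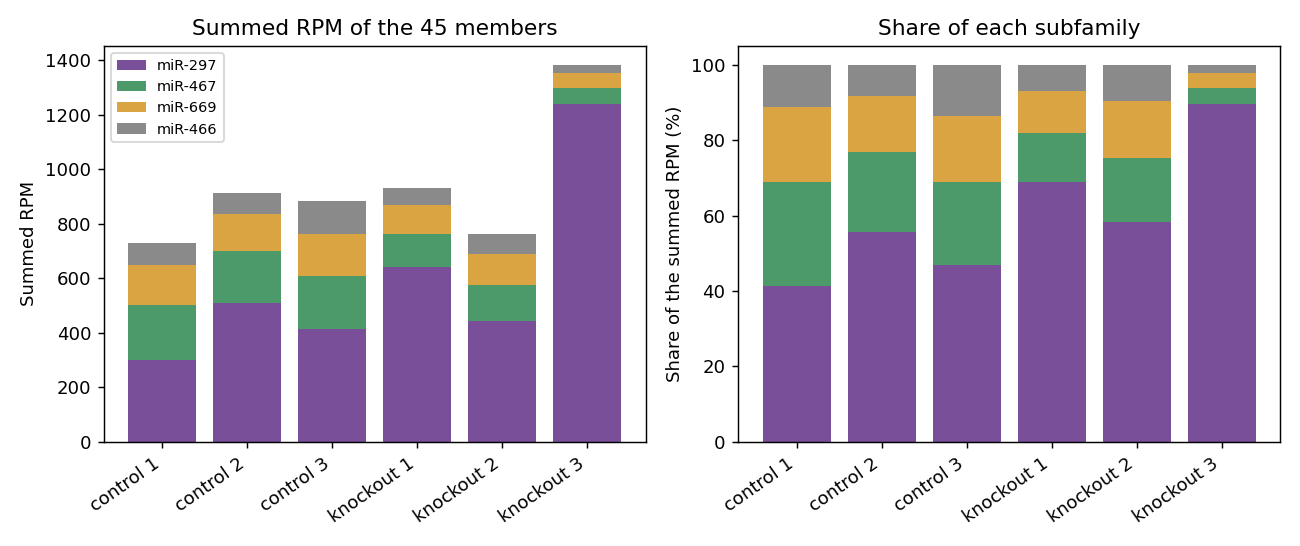
Stacked bars for each library give the summed RPM of the 45 members (left) and the share of each subfamily in that sum in percent (right). The miR-297 share is 41.3% to 55.6% in the control and 58.4% to 89.7% in the knockout libraries, and the total of knockout replicate 3 is the tallest.

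Ratios between members of one library do not depend on what the library was scaled to. miR-297b-5p was 1.99, 3.82 and 3.35 times miR-467a-5p in the control and 8.64, 4.89 and 32.1 times in the knockout libraries. The groups did not overlap, and the log2 ratio differed by 1.91 (2-sided exact permutation p = 0.1, below which 3 libraries against 3 cannot go, and 0.15 after adjustment over 3 ratios). Without knockout replicate 3 the difference was 1.14. Against its neighbour miR-669c-5p, miR-297b-5p was 2.91, 4.65 and 3.38 times as high in the control and 8.29, 4.47 and 26.8 times in the knockout libraries. Here knockout replicate 2 lay below control replicate 2 (exact permutation p = 0.2, adjusted p = 0.2). miR-467a-5p was 1.46, 1.22 and 1.01 times miR-669c-5p in the control and 0.959, 0.914 and 0.835 times in the knockout libraries, a log2 difference of -0.43 without overlap (exact permutation p = 0.1, adjusted p = 0.15). The 3 ratios were chosen after the levels were seen.

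For 10 hairpin names both arms were among the members, and the 5p arm was higher for 5 of them and the 3p arm for the other 5. At a mean of at least 10 RPM over both arms there were 3. Mir467d split its reads, with 33.3% to 60.0% from the 5p arm. miR-466p came almost wholly from the 3p arm, with 0% to 7.50% from the 5p arm, and miR-669p from the 5p arm, with 80.0% to 100%. The prevailing arm of miR-466p and of miR-669p was the same in all 6 libraries.

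Among members with a single hairpin, levels differed along the intron. Of the 33 members with a single hairpin inside Sfmbt2, 15 lay in the first 17.2 kb of the array and 18 in the last 17.2 kb. The 19 hairpins of the middle stretch all carry names shared by several hairpins or names not analysed here. miR-467a-5p, the second most abundant member at a mean of 101 RPM, is therefore left out. Its 10 hairpins lie between 10476346 and 10503355, from the first stretch through the middle into the last, so its reads cannot be placed. In the first stretch 1 member, miR-466e-3p, reached a mean of 10 RPM, and the group means summed to 35.6 RPM for the controls and 25.3 RPM for the knockouts. In the last stretch 6 members did, among them miR-297b-5p and miR-669c-5p, and the sums were 642 and 911 RPM. Of these sums miR-297b-5p alone made up 406 RPM for the controls and 772 RPM for the knockouts. The next highest there, miR-669c-5p, had 111 and 73.9 RPM, so the higher knockout sum does not describe the stretch as a whole. Neighbouring hairpins also differed in level: miR-297c-3p, whose hairpin Mir297c (chr2:10509016-10509113) lies just before Mir669c, averaged 1.72 RPM, against 92.5 RPM for miR-669c-5p.

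**Figure D4:**
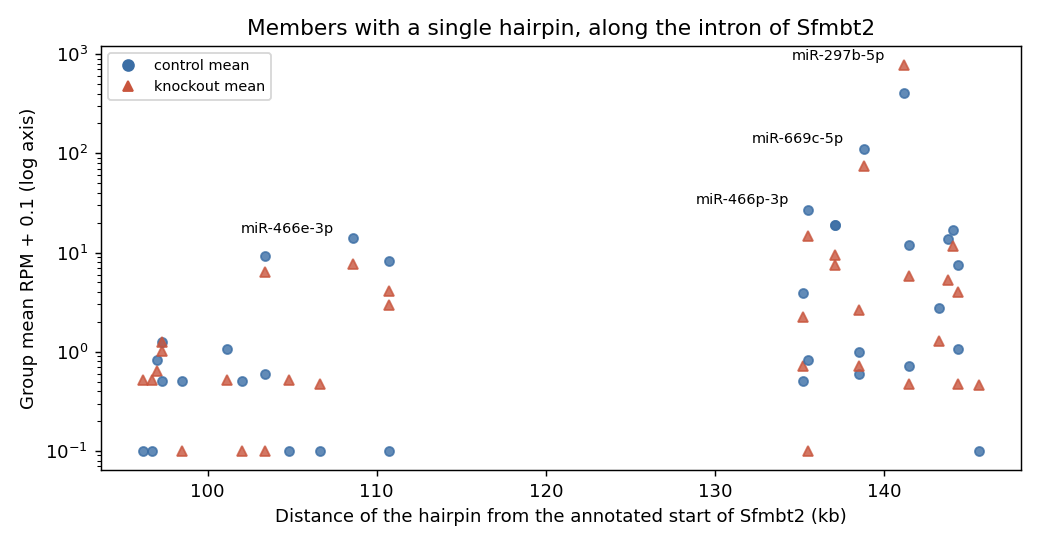
Group mean RPM plus 0.1, on a log axis, of the 33 members with a single hairpin inside Sfmbt2 against the distance of the hairpin from the annotated start of the gene in kb, with control means as blue circles and knockout means as red triangles. Of the members shown, those of highest level lie at the far end of the array. The gap holds hairpins with shared names, among them most of those of miR-467a-5p, which is not shown.

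The 5 members from elsewhere in the genome were rare. miR-466q was the highest, at 2.88, 4.44 and 14.1 RPM in the control and 9.95, 5.08 and 2.18 RPM in the knockout libraries, with overlap (log2 fold change -0.20 ± 0.62, limma adjusted p = 0.866). miR-467f was listed at 1.23 to 1.48 RPM in the control libraries, at 5.60 RPM in knockout replicate 1 and at 0 in the other knockout libraries. miR-466i-3p, miR-669n and miR-467g had at most 5 reads. The 4 tested ones had a median of 0.12, and 0 passed.

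The lineage of the vesicles was checked by 7 miRNA names of the osteoblast and mesenchyme lineage, among them miR-199a, miR-214 and miR-143. All 7 had entries, and their 13 entries summed to 80196 to 88471 RPM in the control and 30029 to 61392 RPM in the knockout libraries, without overlap and lowest in knockout replicate 3. 1 of the 13, miR-10b-3p, was at 0 in all knockout libraries. The same library was the lowest for 10 of the 15 members seen in all 6 libraries, including miR-467a-5p and miR-669c-5p. The blood list (6 entries, with miR-486a-3p at 0 in the knockout) went from a range of 563 to 839 RPM in the controls to one of 248 to 446 RPM in the knockouts, and the endothelial list (4 entries, none at 0) from 85.1 to 105 RPM to a range of 23.4 to 52.2 RPM. Their part in the lower values of the members was not tested. Early embryo and trophoblast miRNAs of the miR-290 and miR-302 clusters were rare, with 6 entries for 10 names, 3.60 to 11.1 RPM across controls and 5.60 to 8.16 RPM across knockouts. Of these entries miR-295-3p was at 0 in all control and miR-294-5p in all knockout libraries. The sums of the epithelial, muscle and neural lists, with 8, 6 and 1 entries, overlapped between the groups.

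Another large imprinted array, the Dlk1-Dio3 cluster of chromosome 12, is set beside the members here. Of 42 tested Dlk1-Dio3 entries, 4 were higher and 1 lower, with a median of -0.26, and the 77 listed ones summed to 927 to 1337 RPM in the controls and 2134 to 3192 RPM in the knockouts, without overlap, so the sum and the median differed in sign. The members here had 0 higher and 1 lower of 26, a median of -0.61, and sums that overlapped between the groups. Over all 1114 tested entries, 2.15% were higher and 2.69% lower. The rodent cluster of miR-290 to miR-295 had 8 entries, of which 2 were tested and 0 passed. Whether the clusters differ was not tested.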

How the data were processed

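Small RNA of vesicles from 3 control and 3 knockout libraries was analysed from 1 table of 1712 entries, 1528 with a miRNA name and 184 with a numeric ID. Per the file headers the columns are libraries, and the deposited values are RPM, which sum to 1000000 in each library. The tools named in the submitters' processing notes are edgeR and fastp, without a role or version. Aligner, build and miRNA annotation: not given in the sources used here.

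Groups and replicate numbers came from the sample titles. The 1114 entries that reached 1 RPM in 3 or more libraries entered limma 3.58.1 (R 4.3.3) as log2(RPM + 1), with eBayes following the trend of variance on mean, 2-sided tests and Benjamini-Hochberg adjustment over all of them, threshold 0.05. No count test was run, since no entry stands at 1 read. Fold changes on this scale understate those of low entries.

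Members and lists were chosen with earlier results of these data known. By rule, every library's value was given for members that had a mean of at least 10 RPM, passed the threshold, led their subfamily, or were above 0 in all libraries of 1 group and none of the other. Other members, among them miR-669o-3p and miR-466q with all their values, are named after their values were seen. Alternatives were pseudocounts of 0.5 and 5, other filters, 4 rescalings, other variance priors, a replicate block and leaving out each library.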

Additional observations from a re-analysis of the deposited data

How the results depend on the processing

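With 3 libraries a group and most members under 10 RPM, depth and replicate number limit what could be called. The tested members had a median log2 fold change below 0 under all 17 alternatives, from -0.90 with a mean of at least 10 RPM to -0.29 without a filter (-0.90 to -0.33 with a library left out). The signs of miR-297b-5p, miR-467a-5p, miR-669c-5p and the 5 other members with a mean of at least 10 RPM held under all of them. That of miR-466g reversed in 3 (0.15 after rescaling to named entries without fragment-like ones, 0.075 with quantile normalization, 0.29 without control replicate 3; -0.84 to 0.29 with a library left out). Where a value moved, the cause was not tested.

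The count of members called lower, 1 with the main settings, was 0 without a filter, after either rescaling to named entries, with median centring, with quantile normalization, with a robust prior and without the mean-variance trend. It was 2 with a mean of at least 10 RPM (miR-467a-5p and miR-467d-5p). The count called higher, 0 with the main settings, was 1 (miR-297b-5p) with a mean of at least 10 RPM, with median centring and with quantile normalization. Leaving out 1 library gave 0 to 1 in either direction, and without knockout replicate 1 the lower call was miR-669o-3p, not miR-467a-5p.

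Over all entries, 24 were higher and 30 lower. The lower count was 15 with a pseudocount of 0.5, 15 without a filter, 71 with a mean of at least 10 RPM, 5 after rescaling to named entries and 1 when fragment-like ones were left out too. It was 8 with median centring, 16 with quantile normalization and 17 with a robust prior. Without the trend limma called 0 higher and 0 lower, with 55 and 75 at an unadjusted p under 0.05. With a library left out, the counts were 9 to 26 higher and 2 to 37 lower, the lowest without control replicate 3.

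With the replicate block, 19 entries were higher and 11 lower, and limma called 0 members higher and 0 lower. Before adjustment, 2 and 4 of 26 members were at p under 0.05, beside 56 and 144 of 1114 entries. Deviations of libraries with the same number correlated at -0.02 to 0.01. These values show no pairing by number but cannot tell whether such libraries share an animal or batch.

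The summed RPM of the members, knockout over control, was 1.22, and 1.75 after rescaling to named entries without fragment-like ones (1.01 to 1.38 with a library left out). The mean number of members above 0 differed between the groups by 0.33, and by -2.83 to 3.67 with a library left out.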
